A study of Caenorhabditis elegans with 9 samples.

Results

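Transcripts of the pepsin-type aspartyl protease genes named asp were followed in wild type N2 *C. elegans* from the last larval stage to late adulthood. The genes were taken by name from a list of 10, which was chosen with earlier results of these data known. Counts over the list are therefore descriptions and not a test of the family. Under these names, 9 of the 10 have probe sets in the annotation of the array, 12 probe sets in all, among 17118 genes and 22625 probe sets on the whole array. Of the 12, 7 carry the maker's mark for probes that match several transcripts, and asp-4, asp-6, asp-13 and asp-14 are measured by such probe sets alone, so signal from related transcripts could be part of their values. The name asp-10 is found neither in that annotation nor in the RefSeq gene table, and no value is given under it. The gene hrg-7 (C15C8.3), known from general knowledge as the former asp-10, was described beside the 9 genes and not counted with them, because the tables do not pair these names.

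Aspartyl proteases of this family cut proteins with a pair of aspartates in the active site, are made as inactive precursors and work best in acid. In animals they include pepsin, which digests food in the gut, and cathepsin D, which degrades proteins in lysosomes. In *C. elegans* the intestine takes both parts, since its cells secrete digestive enzymes into the lumen and are filled with lysosome-related gut granules. ASP-4 is the worm relative of cathepsin D, and ASP-3 and ASP-4 are known to act with the calpains CLP-1 and TRA-3 in necrotic death of neurons. Transcripts of asp-1 are known from the intestine. HRG-7 is a secreted protein of this family through which the intestine signals heme status to other tissues.

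Total RNA of whole worms was hybridized to 9 GeneChip arrays, 3 for each of the ages L4 larva, Day 6 adult and Day 15 adult. All worms were N2 animals grown at 20°C on *E. coli* OP50, synchronized by hatching and starving as L1 larvae. The adults, but not the L4 larvae, were kept on 0.05 mg/ml FUdR, which prevents progeny, so adult age and the drug cannot be told apart in comparisons with L4 larvae. The 3 replicates of an age came from populations propagated separately, each a pool of many animals. The protocol aged part of each L4 culture, so arrays of different ages may share a population. Values are log2 expression from GCRMA, which takes off background estimated from the probe sequences and scales the arrays to each other, and a difference of 1 is 2-fold. Values under 4 lay near background, and folds against them are also given with values under 4 set to 4, as lower bounds. A gene rose or fell where limma gave an adjusted p under 0.05 (Benjamini-Hochberg adjustment across 11758 tested genes) and a change of at least 2-fold. The standard error (SE) of each change comes from that fit. With 3 arrays an age, precision is limited by their number.

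The arrays of L4 larvae were less alike than those of adults. The difference of an array from the other arrays of its age had an SD over probe sets of 0.51 to 0.91 in L4 larvae and of 0.29 to 0.36 in adults, and L4 replicate 2 stood farthest apart. A list of 12 germline and oocyte genes had a mean log2 level of 10.91 on that array, against 8.34 and 9.50 on the other L4 arrays and 11.21 to 11.90 on the adult arrays. Yolk protein genes, which are markers of the adult intestine, were present in the L4 larvae too, with 0 of 5 tested called different at Day 6. Of all genes tested, 53.9% were called between L4 larvae and Day 6. Genes specific to sperm were higher at Day 15 than at Day 6, with all 5 tested called higher, against 16.4% of all genes tested. Results that rest on L4 replicate 2 are given with and without it.

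Of the 9 aspartyl protease genes, 8 fell from Day 6 to Day 15 and 0 rose. Of all genes tested, 33.3% were called in that comparison, 16.9% that fell and 16.4% that rose. The falls ranged from 2.22-fold for asp-4 to at least 121-fold for asp-13, and asp-6 did not pass the test. The median change was -2.45 on the log2 scale, and the median of all genes tested was 0.00. With values under 4 set to 4, 7 genes fell and the median was -2.13, since the call of asp-8 was lost. All 9 genes passed the filter on low values, which asked for a mean of 4 in at least 1 age, and 7 of them had a mean of 4 or above at each age. The other 2, asp-8 and asp-13, were under 4 at Day 15. In bulk samples like these, fewer cells of a type and less RNA per cell cannot be told apart.

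**Figure D1:**
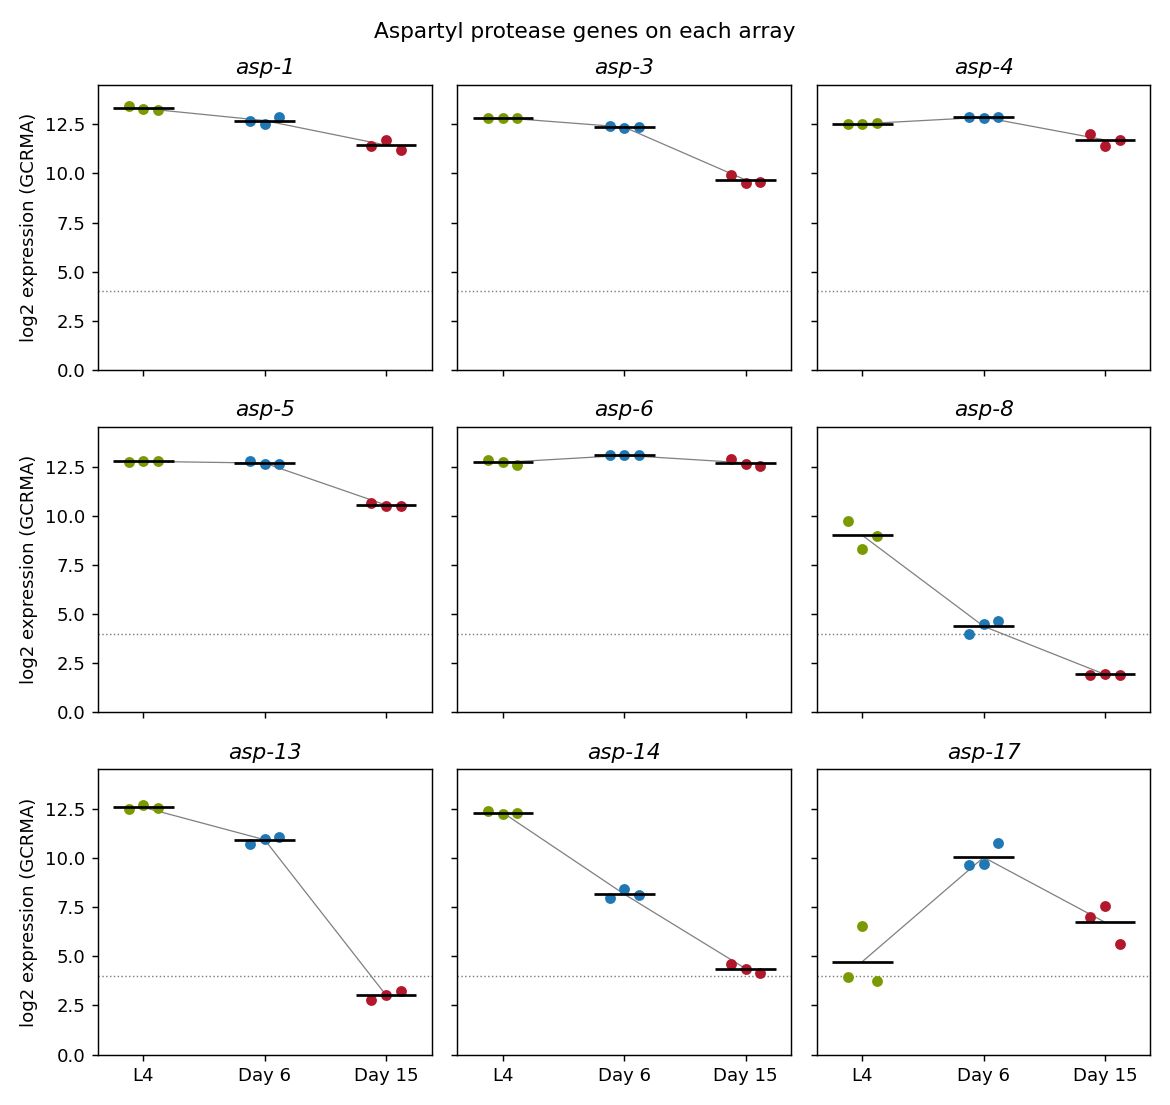
Log2 expression (y axis, GCRMA) of each of the 9 aspartyl protease genes on the 3 arrays of each age (x axis), with 1 point per array, a bar at the mean of an age and a dotted line at 4. The genes asp-8, asp-13 and asp-14 stepped down at both adult ages, with asp-8 near or under the line at 4 from Day 6 on, asp-17 was highest at Day 6, and asp-6 stayed between 12.55 and 13.07 on all 9 arrays.

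The genes asp-13, asp-14 and asp-8 fell at both steps, from L4 larvae to Day 6 and again to Day 15, but the later fall of asp-8 lay almost wholly under 4 and was not called with values under 4 set to 4. This grouping of the genes by pattern was made after the values were seen. From L4 larvae to Day 6, 3 of the 9 genes fell and 1 rose, against 24.6% of all genes tested that fell and 29.2% that rose (53.9% in either direction). The 3 that fell are the genes of this group.

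The gene asp-13 (F28A12.4, chromosome V) was abundant in larvae and near background in old adults. Its log2 values were 12.48, 12.70 and 12.54 in L4 larvae, 10.73, 10.98 and 11.06 at Day 6, and 2.80, 3.02 and 3.26 at Day 15. The 3 ages did not overlap, and the arrays of an age lay close together. It fell by 1.65 from L4 larvae to Day 6 (SE 0.18, limma adjusted p = 6.2e-05), a fall of 3.14-fold. From Day 6 to Day 15 it fell by 7.90 (SE 0.18, adjusted p = 6.4e-08). With values under 4 set to 4, Day 15 lay at least 121-fold below Day 6 and at least 381-fold below L4 larvae.

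The gene asp-14 (K10C2.3, chromosome X) lost most of its level before Day 6. The arrays gave log2 values of 12.38, 12.23 and 12.29 in L4 larvae, 7.96, 8.42 and 8.10 at Day 6, and 4.62, 4.37 and 4.14 at Day 15. Again no array of one age reached those of another. The fall from L4 larvae to Day 6 was 17.6-fold (log2 change -4.14, SE 0.19, limma adjusted p = 4.4e-07). The fall from Day 6 to Day 15 was 13.8-fold (log2 change -3.78, SE 0.19, adjusted p = 1.5e-06), to values just above the limit of 4.

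The gene asp-8 (F59D6.3, chromosome V) was a larval transcript on these arrays. Its log2 values were 9.73, 8.29 and 8.98 in L4 larvae, 3.98, 4.51 and 4.64 at Day 6, and 1.91, 1.97 and 1.91 at Day 15. It thus stood near background from Day 6 on, and its L4 arrays were the most spread of this group, with the lowest value on L4 replicate 2. The fall from L4 larvae to Day 6 was by 4.62 (SE 0.34, limma adjusted p = 5.5e-06), or by 4.98 without L4 replicate 2. The later fall was by 2.45 (SE 0.34, adjusted p = 4.0e-04), and with values under 4 set to 4 the change was -0.38 (adjusted p = 0.414). Between L4 larvae and Day 15 the fall was at least 32-fold.

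The gene hrg-7 (C15C8.3, chromosome V) stepped down in the same order. The arrays gave log2 values of 12.13, 11.81 and 12.25 in L4 larvae, 9.25, 9.81 and 9.83 at Day 6, and 3.75, 4.64 and 4.19 at Day 15. The ages did not overlap. It fell by 2.43 to Day 6 (SE 0.27, limma adjusted p = 6.4e-05) and by a further 5.44 to Day 15 (SE 0.27, adjusted p = 1.4e-06). With hrg-7 counted as asp-10, 9 of 10 genes fell from Day 6 to Day 15, and 4 of 10 fell from L4 larvae to Day 6. Of all genes tested, 16.9% and 24.6% fell in these comparisons. The count with hrg-7 was added after the data were seen.

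The genes asp-1, asp-3, asp-4, asp-5 and asp-6 were far above background at each age, with no array under 9.54 in the probe sets that stand for them. None of the 5 changed by 2-fold from L4 larvae to Day 6. From Day 6 to Day 15, 4 of them fell and asp-6 did not pass the test. Levels of different probe sets cannot be set against each other, so the text compares ages within a gene.

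The gene asp-3 (H22K11.1, chromosome X) had one of the tightest sets of values. They were 12.84, 12.83 and 12.82 in L4 larvae, 12.40, 12.30 and 12.37 at Day 6, and 9.93, 9.54 and 9.55 at Day 15. The ages did not overlap, but the earlier step was small, with a change of -0.47 (SE 0.16, limma adjusted p = 0.0288) that did not reach 2-fold. From Day 6 to Day 15 the gene fell 6.42-fold, by 2.68 on the log2 scale (SE 0.16, adjusted p = 3.9e-06).

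The gene asp-4 (R12H7.2, chromosome X), the cathepsin D relative, fell less. Its log2 values were 12.52, 12.50 and 12.55 in L4 larvae, 12.86, 12.83 and 12.88 at Day 6, and 12, 11.40 and 11.71 at Day 15. Day 6 stood highest, though its change from L4 larvae was 0.33 (SE 0.18, limma adjusted p = 0.13). It fell by 1.15 from Day 6 to Day 15 (SE 0.18, adjusted p = 7.9e-04), which is 2.22-fold. Against L4 larvae, Day 15 had a change of -0.82 (SE 0.18, adjusted p = 0.0031), below the limit of 2-fold. A second probe set of asp-4 had a larger fall from Day 6 to Day 15, by 1.59 (SE 0.19), and a change of -1.39 from L4 larvae to Day 15. With the mean of both probe sets asp-4 fell between these ages too (log2 change -1.10, adjusted p = 5.1e-04).

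The genes asp-3 and asp-4, which are known to share a role in neuronal necrosis, differed in the size of their falls. The change of asp-3 from Day 6 to Day 15 was lower than that of asp-4, with a difference of -1.53 on the log2 scale (SE 0.09, from the ratio of the genes on each array). The ratios of the ages did not overlap. The 2-sided exact permutation test gave p = 0.1, the smallest p that 3 arrays against 3 allow (adjusted p = 0.1 over 9 such comparisons of 3 pairs of genes, chosen after their values were seen). Of 6 further genes known from necrosis, 1 fell in this comparison, a share near the 16.9% of all genes tested that fell. The gene that fell was itr-1, which encodes the inositol trisphosphate receptor of the endoplasmic reticulum (log2 change -1.43, SE 0.33, limma adjusted p = 0.0064). The calpain gene clp-1 had a change of 0.29, the calpain gene tra-3 one of -0.69 and the gene unc-68 one of -0.73. The serpin gene srp-6, whose product protects worms from necrosis and whose probe set may also match other genes, had a change of -0.97, and the calreticulin gene crt-1 one of 0.22.

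The gene asp-5 (F21F8.3) had nearly the same values in L4 larvae and at Day 6 and lower ones at Day 15. The arrays gave log2 values of 12.73, 12.79 and 12.77 in L4 larvae, 12.77, 12.61 and 12.64 at Day 6, and 10.65, 10.49 and 10.48 at Day 15. The values of L4 larvae and of Day 6 overlapped, and those of Day 15 lay apart. It fell by 2.13 from Day 6 to Day 15 (SE 0.15, limma adjusted p = 7.0e-06), which is 4.39-fold. A second probe set of asp-5, which carries no mark of matching several transcripts, fell further, by 3.12 (SE 0.19), from a mean of 12.14 to one of 9.01.

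The gene asp-6 (F21F8.7) was the exception among the 9 genes. Its log2 values were 12.81, 12.73 and 12.59 in L4 larvae, 13.06, 13.07 and 13.07 at Day 6, and 12.87, 12.64 and 12.55 at Day 15. Day 6 lay above both other ages on every array, by less than 2-fold. The change from Day 6 to Day 15 was -0.38 (SE 0.16, 95% confidence interval -0.74 to -0.02, limma adjusted p = 0.0792). The interval leaves out a fall of 2-fold. The second probe set of asp-6 gave nearly the same values, with a change of -0.38 (SE 0.17).

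**Figure D2:**
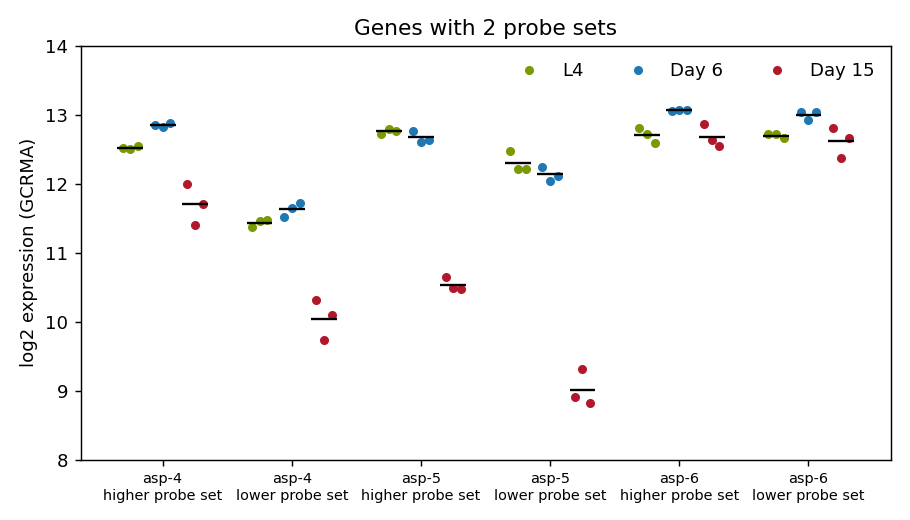
Log2 expression (y axis, GCRMA) for both probe sets of asp-4, asp-5 and asp-6 (x axis), with 1 point per array, colours for the 3 ages and a bar at the mean of an age. Between Day 6 and Day 15 the probe sets of asp-4 fell by 1.15 and 1.59, those of asp-5 fell by 2.13 and 3.12, and both of asp-6 had a change of -0.38. The y axis starts at 8.

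On the genome asp-6, asp-12, asp-5 and the pseudogene asp-11 lie next to each other on chromosome V, in the gene order of the RefSeq table of assembly WBcel235. No coordinates are given, since the build behind the array's annotation is not named. Within this row the genes did not move alike. The change of asp-5 from Day 6 to Day 15 was lower than that of asp-6, with a difference of -1.75 on the log2 scale (SE 0.07, 2-sided exact permutation test, p = 0.1, the smallest the design allows, and adjusted p = 0.1 over the same 9 comparisons). The gene asp-12 (F21F8.4), which lies between them, had log2 values of 6.54, 6.72 and 6.32 in L4 larvae, 7.63, 7.47 and 8.12 at Day 6, and 4.74, 4.22 and 4.46 at Day 15. It rose by 1.21 to Day 6 (SE 0.23, limma adjusted p = 0.0015) and then fell by 3.27 (SE 0.23, adjusted p = 7.8e-06). The probe set of asp-11 was between 1.71 and 2.45 on all 9 arrays.

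The gene asp-1 (Y39B6A.20, chromosome V) was lower at each age than at the one before. The arrays gave log2 values of 13.44, 13.26 and 13.22 in L4 larvae, 12.68, 12.51 and 12.87 at Day 6, and 11.42, 11.70 and 11.20 at Day 15. The ages did not overlap. The change from L4 larvae to Day 6 was -0.62 (SE 0.19, limma adjusted p = 0.0165), short of 2-fold, and from Day 6 to Day 15 asp-1 fell by 1.25 (SE 0.19, adjusted p = 6.3e-04), which is 2.37-fold.

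The gene asp-17 (Y39B6A.24), which lies in the same stretch of chromosome V as asp-1, asp-15 and asp-16, was the single gene of the 9 that rose from L4 larvae to Day 6. Its log2 values were 3.93, 6.53 and 3.73 in L4 larvae, 9.66, 9.67 and 10.77 at Day 6, and 7.01, 7.54 and 5.64 at Day 15. All Day 6 arrays lay above those of both other ages, while the values of L4 larvae and Day 15 overlapped. The high L4 value is that of L4 replicate 2, the array with the highest level of germline and oocyte genes among the larvae, and the part of that difference in this result was not tested. The rise to Day 6 was by 5.30 on the log2 scale (SE 0.78, limma adjusted p = 3.3e-04) and by 6.20 without L4 replicate 2. It was at least 36.5-fold when low larval values were raised to 4. From Day 6 to Day 15 asp-17 fell 9.87-fold (SE 0.78 on the log2 scale, adjusted p = 0.0074).

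Whether asp-17 was still above its larval level at Day 15 was not settled. The change was 2.00 (SE 0.78, limma adjusted p = 0.0429), but the arrays of these ages overlapped and the call was lost in 12 of 21 alternatives. Without L4 replicate 2 the change was 2.90 (adjusted p = 7.7e-04), and without L4 replicate 3 it was 1.5 (adjusted p = 0.141). From L4 larvae to Day 6 the changes of asp-1 and asp-17 had opposite signs, with a difference of -5.92 (SE 0.97, 2-sided exact permutation test, p = 0.1, the smallest possible).

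**Figure D3:**
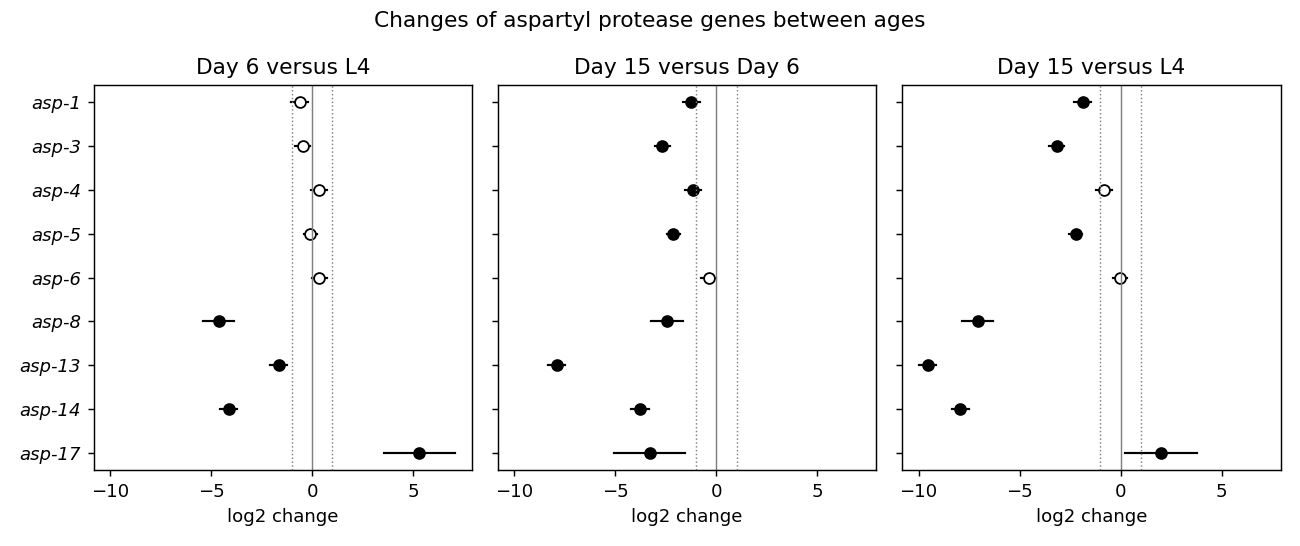
Log2 change (x axes) of each aspartyl protease gene (y axis) in the 3 comparisons, with the 95% confidence interval from limma as a line, filled points for genes that rose or fell and open points for genes that did not pass the test. Dotted lines mark 2-fold. From Day 6 to Day 15 all 8 filled points lie below 0, from asp-4 at -1.15 to asp-13 at -7.90, and asp-17 alone has filled points on both sides of 0.

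From L4 larvae to Day 15, 6 of the 9 genes fell and 1, asp-17, rose, against 26.7% of all genes tested that fell and 32.3% that rose (58.9% in either direction). This comparison shares its arrays with the other 2 and adds no independent sample. The genes that fell were asp-13, asp-14, asp-8, asp-3 (log2 change -3.16, SE 0.16), asp-5 (-2.22, SE 0.15) and asp-1 (-1.87, SE 0.19). The genes asp-4 and asp-6 did not pass the test.

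Genes whose values followed those of a member most closely across the 9 arrays were found by Pearson's r over all genes tested. Each r rests on 9 arrays in 3 ages and mainly follows the means of the ages, so many genes share a high value. For asp-13 the nearest was R09H10.3 (r = 0.999), one of 493 genes at 0.95 or above. For asp-14 it was cpr-8, a cathepsin B-like cysteine protease gene (r = 0.999), and for asp-8 it was mct-4 (r = 0.999). The nearest to asp-5 was the lysozyme gene lys-1 (r = 0.998), to asp-3 R09F10.1 (r = 0.998), to asp-1 W04E12.7 (r = 0.995) and to asp-4 the yolk protein gene vit-4 (r = 0.991). For asp-17 and asp-6 fewer genes were at 0.95 or above, 20 and 2. Such a count also depends on the spread within an age beside the size of the change, so it does not show how rare a pattern is. The nearest genes to asp-17 and asp-6 were slc-36.5 (r = 0.994) and F48D6.4 (r = 0.971), both highest at Day 6.

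Of 10 further aspartyl protease genes listed, hrg-7 among them, 7 have a probe set of their own and 2, hrg-7 and asp-12, passed the filter. The probe sets of asp-7, asp-9, asp-11, asp-15 and asp-19 had means under 4 at each age, with values between 1.60 and 2.93 on all arrays. No test was made for them. The gene asp-7, the neighbour of asp-8 on chromosome V, had means of 2.12 in L4 larvae, 1.71 at Day 6 and 1.65 at Day 15.

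Cysteine cathepsins, which work beside the aspartyl proteases in lysosomes and in the gut, mostly fell between Day 6 and Day 15. Of 12 tested, 7 fell and 1 rose, with a median change of -2.17. Of all genes tested, 16.9% fell and 16.4% rose. The cathepsin B-like gene cpr-2 was the member that rose, from means of 2.16 in L4 larvae and 2.52 at Day 6 to 8.84 at Day 15. It passed the filter on low values through Day 15 alone, and its change was 4.84 with values under 4 set to 4. The largest falls were those of cpr-5 (log2 change -5.59, SE 0.25), which had already fallen by 1.43 from L4 larvae to Day 6, and of cpr-9 (log2 change -3.79, SE 0.17), with a change of 0.44 at that earlier step. The cathepsin L gene cpl-1 had a change of -0.82 (SE 0.18, limma adjusted p = 0.0049), short of 2-fold.

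Other lysosomal genes and the vacuolar proton pump, which acidifies lysosomes and so gives these proteases their working pH, were also examined. From Day 6 to Day 15, 16.9% of all genes tested fell and 16.4% rose. Of 22 genes for lysosomal membrane proteins and hydrolases, 10 fell and 1 rose, and their median change was -0.77, or -0.41 with values under 4 set to 4. The 10 include cln-3.1, whose means at both adult ages were under 4. The largest fitted falls were those of the alpha-mannosidase gene aman-1 (log2 change -5.24, SE 0.42, limma adjusted p = 1.5e-05, at least 21.5-fold with values under 4 set to 4) and of the acid sphingomyelinase genes asm-3 (log2 change -4.52, SE 0.50) and asm-2 (log2 change -4.41, SE 0.31). Raising low values to 4 left asm-3 with a change of -3.32, a smaller fall than those of asm-2 (-4.27), the lysosomal nuclease gene nuc-1 (-3.44) and the thioesterase gene ppt-1 (-3.40). The membrane protein gene lmp-1, the relative of mammalian LAMP genes, had a change of -0.43. Of 19 proton pump genes, 10 fell and 0 rose, with a median of -1.10. With probe sets that carry no mark of matching several transcripts, 2 of 6 fell, against 17.2% of all genes tested. The subunit genes vha-5 (log2 change -2.95, SE 0.24) and vha-19 (log2 change -2.33, SE 0.19) fell the most after vha-6 (log2 change -3.19, SE 0.20), the subunit of the intestine. The gene vha-6 is also on the list of intestine markers.

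**Figure D4:**
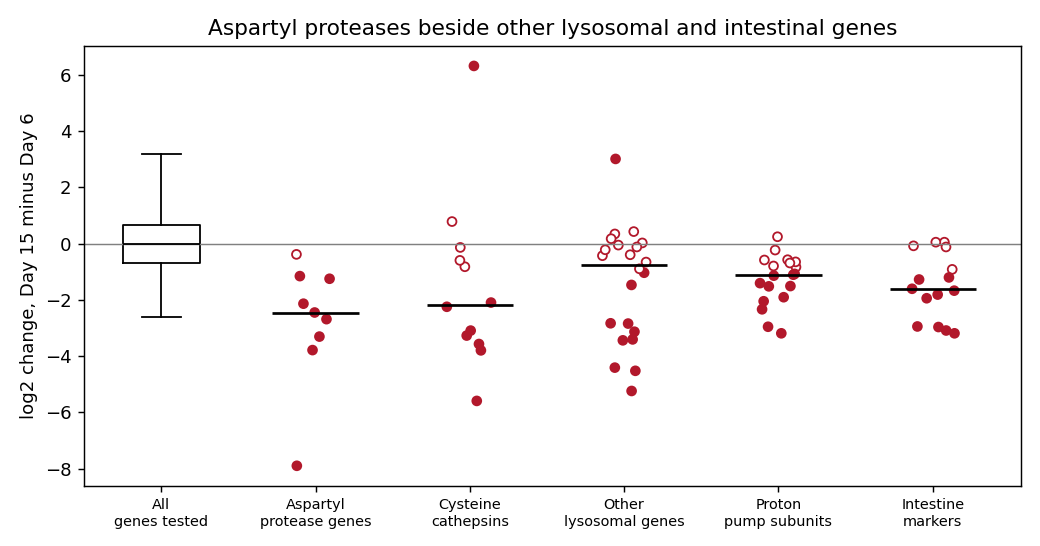
Log2 change from Day 6 to Day 15 (y axis) of the aspartyl protease genes and of 4 lists of genes (x axis), with 1 point per gene (filled where it rose or fell) and a bar at the median. The box shows the quartiles and the 5th to 95th percentile of all genes tested. The median was -2.45 for the aspartyl proteases, -2.17 for cysteine cathepsins, -0.77 for other lysosomal genes, -1.10 for proton pump subunits and -1.60 for intestine markers, with 0.00 for all genes tested.

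Many markers of the intestine and some of other tissues were also lower at Day 15 than at Day 6. Of all genes tested, 16.9% fell and 16.4% rose between these ages. Of 15 intestine markers, 10 fell from Day 6 to Day 15 and 0 rose, with a median of -1.60. From L4 larvae to Day 6, 10 of the 15 had fallen, with a median of -2.44, against 24.6% of all genes tested. The mean log2 level of the list was 10.55 to 11.10 on the arrays of L4 larvae, 8.18 to 8.49 at Day 6 and 6.60 to 6.97 at Day 15. The log2 of their summed level was 15.21 to 15.48 in L4 larvae, 13.59 to 13.83 at Day 6 and 13.01 to 13.19 at Day 15. The water channel gene aqp-4 alone of the 15 had a mean under 4, at Day 15. From L4 larvae to Day 6 the median change of the 9 proteases was -0.47, beside -2.44 for the intestine markers and 0.17 for all genes tested. Among other lists, 4 of 5 yolk protein genes fell from Day 6 to Day 15 (median -1.23), as did 4 of 8 genes of body wall muscle (median -1.07), 3 of 10 of neurons (median -0.71) and 2 of 6 of the epidermis (median -0.53). In the epidermis list, bli-1, dpy-7 and rol-6 had means under 4 at both adult ages and could hardly show a fall. The others were col-19 (log2 change -4.40) and sqt-3 (-1.71), which fell, and dpy-13 (-0.89), which was not called. Not all lists went down. Of 12 germline and oocyte genes, 0 were called, with a median change of -0.38. All 5 sperm genes tested rose (median 3.09), and 0 of 2 pharynx genes tested were called (median 0.41). The part of any of these changes in those of the proteases was not tested.

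Among 8 genes for regulators of intestinal and lysosomal genes, 3 fell from Day 6 to Day 15 and 0 rose. Of all genes tested, 16.9% fell and 16.4% rose. The 3 regulator genes that fell were elt-2, which encodes the main GATA factor of the intestine (log2 change -1.60, SE 0.34, limma adjusted p = 0.0042), its relative elt-7 (log2 change -1.67, SE 0.30) and mxl-3, which encodes a repressor of lysosomal lipase genes (log2 change -2.78, SE 0.29). Both GATA factor genes are also on the list of intestine markers. The gene hlh-30, the worm relative of TFEB, a master regulator of lysosomal genes, had a change of -0.56 (SE 0.19, adjusted p = 0.0381), and daf-16 one of 0.16 (SE 0.15).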

How the data were processed

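RNA of 9 samples was hybridized to GeneChip arrays, 3 per age, from 100 ng of total RNA each. The authors normalized the scans with GCRMA (version not given in the sources used here) and deposited log2 expression values per probe set. Their MAS5 present calls and their subtraction of gene means were not used. Of 22625 probe sets, 20766 have 1 gene in the array's annotation, 887 several and 972 none. Of the 20766, 20701 probe sets have a gene ID found in the RefSeq table, which gave their symbols. The probe set with the highest mean stood for a gene, and 11758 of 17118 genes had a mean of at least 4 in 1 age.

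The ages were compared by limma (version 3.58.1, R 4.3.3), with the 9 arrays in a single linear model and moderated variances. A gene was called at an adjusted p under 0.05 and at least 2-fold. The fit was tested on simulated data first. The changes of 2 genes were compared through their log2 ratio on each array, with exact permutation tests (scipy 1.17.1). Figures were drawn with matplotlib 3.10.9.

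Members and lists were chosen with earlier results of these data known. The text names all members, up to 3 called genes of each list with the largest change, the nearest genes by r, and other genes of the lists as chosen after their values were seen. Alternatives changed the arrays, filter, floor, probe sets, scaling, variance model, threshold, test and replicate block. Sequences were not used here.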

Additional observations from a re-analysis of the deposited data

How the results depend on the processing

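Of 27 changes (9 genes in 3 comparisons), 22 kept their direction and their side of the threshold in every alternative that gave a value, leaving aside the one without the limit of 2-fold. The count of genes called higher from L4 larvae to Day 15 was 1, and 0 with only the 2 ages compared, without the filter on low values, with values under 4 set to 4 and with the methods' t-test at an unadjusted p or after Benjamini-Hochberg adjustment. There asp-17 had a change of 1.89 with the floor and of 2.00 in the other alternatives (limma adjusted p = 0.0752 with 2 ages, 0.0592 without the filter and 0.0508 with the floor). Leaving out 1 array at a time gave changes of asp-17 between 1.5 and 2.90 in that comparison (adjusted p = 7.7e-04 to 0.144 from limma) and counts between 0 and 1. The change of asp-4 from L4 larvae to Day 15 was -1.10 with the mean of its probe sets, and that of asp-8 from Day 6 to Day 15 was -0.38 with the floor. With probe sets that carry no mark of matching several transcripts, 5 genes fell from Day 6 to Day 15 and 1 fell from L4 larvae to Day 6, as asp-4, asp-6, asp-13 and asp-14 then have no probe set. Of all genes tested in that alternative, 17.2% and 25.9% fell. Without the limit of 2-fold, 5 genes were lower at Day 6 than in L4 larvae, with asp-1 and asp-3 added. Then 7 were lower at Day 15 than in L4 larvae, with asp-4 added. Without that limit, 30.5% and 31.6% of all genes tested were lower in these 2 comparisons.

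Small changes turned sign with the scaling. The change of asp-6 from L4 larvae to Day 15 was -0.02, but 0.13 with quantile normalization, 0.15 with each array centred on its median, and from -0.115 to 0.045 leaving out 1 array (0.03 without L4 replicate 1, 0.00 without Day 15 replicate 2). That of asp-5 from L4 larvae to Day 6 was 0.10 with centring, which shifted the median change of all genes by 0.20 and 0.18 in the comparisons with L4 larvae. The protocol aged part of each L4 culture, but the labels do not say that equal numbers mark 1 culture, and r of their deviations from the age means was between -0.06 and 0.19 and above 0.1 in 1 of 9 pairs. With replicate number as a block, 8 genes fell from Day 6 to Day 15 and none of 33 results changed its call. The alternative that counts hrg-7 was added after the data were seen.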

Other observations

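A probe set beside the family may concern asp-2 (T18H9.2), which has no probe set in the array's annotation. The annotation gives it to the pseudogene T18H9.11, which lies next to asp-2 on chromosome V, while the study's own supplementary table pairs the same probe set with asp-2. Its log2 values were 13.08, 13.05 and 12.97 in L4 larvae, 12.52, 12.61 and 12.68 at Day 6, and 5.79, 6.09 and 5.90 at Day 15. The change from L4 larvae to Day 6 was -0.43 (SE 0.15, limma adjusted p = 0.0333), short of 2-fold, and T18H9.11 fell by 6.68 from Day 6 to Day 15 (SE 0.15, adjusted p = 6.4e-08). Which of these genes the probes measure was not tested.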
